A study of Mus musculus with 21 samples.

Results

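E14Tg2a is a line of male mouse embryonic stem cells derived from strain 129, used here with a short-lived green fluorescent protein knocked into 1 allele of Rex1 (Zfp42). The comparison described here set 3 libraries labelled 2i+LIF HP against 3 labelled 2i+LIF PO, 6 of the 21 mRNA sequencing libraries of the series, chosen by their labels alone. Both groups carry the same medium name. In 2i+LIF, 2i stands for the MEK inhibitor PD0325901 and the GSK3 inhibitor CHIR99021, and LIF is a cytokine that activates STAT3. For all libraries, the labels' protocol gives a first week in NDiff227 medium with 3 µM CHIR99021 and 1 µM PD0325901, then drugs given and withdrawn in turn at each passage. The series covered zero passage, 1 month and 2 months of culture. PO was read as zero passage because it occurs in this medium alone, and the labels do not say which length of culture HP stands for. Replicates were not stated to be separate cultures, so the p-values measure only the spread between these libraries.

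Mouse embryonic stem cells in 2i+LIF are held in the naive state, in which transcription factors such as Nanog, Esrrb and Tfcp2l1 maintain one another's expression. Blocking MEK keeps targets of the kinase ERK low, and blocking GSK3 stabilises beta-catenin, which acts through TCF/LEF factors on Wnt target genes. This state is known for low DNA methylation, and many genes of the germline are silenced by promoter methylation in other cells.

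Gene counts were 2998748, 3783043 and 3334065 in the PO libraries and 1813343, 1717302 and 1132126 in the HP libraries, replicates 1 to 3 in this order here and in all lists of 3 values. According to the file names the PO libraries were sequenced in a run of their own, and the effects of run and group cannot be told apart. The 3 libraries labelled 2i+LIF LP, another culture group of this medium from the same run as HP, are set beside them for that reason. PO replicate 1 stood apart: 39.1% of its gene counts were mitochondrially encoded, against 7.55% and 7.83% in the other PO libraries and 1.25 to 3.05% in HP. Its log2 expression correlated at 0.819 and 0.84 with its own replicates and at 0.85 with HP replicate 1. Among the LP libraries, replicate 1 had 31.7% of its counts on Gm42418, a locus that overlaps ribosomal RNA, against 1.76 to 10.9% in PO and HP. Values are given as CPM (counts-per-million of the TMM-scaled library), and a gene without counts could have up to 3 counts at this depth. A gene is said to have risen or fallen where the adjusted p of edgeR's quasi-likelihood test was under 0.05.

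Of 10643 genes tested, 1127 (10.6%) passed, 617 higher (5.8%) and 510 lower (4.79%) in HP. Their median absolute log2 fold change was 1.84, the smallest was 0.92, and in 1015 of them (90.1%) the 3 HP values lay entirely on one side of the 3 PO values. Among all genes tested that share was 26%. The median log2 fold change of all genes was -0.09, and 2802 genes had an unadjusted p under 0.05. By annotation 1102 of the called genes were protein coding, 18 were lincRNAs, 6 were antisense RNAs and 1 was a pseudogene. The total rested on single libraries: it was 364 without HP replicate 3, 722 without PO replicate 3, and 1715 without LP replicate 1, a library outside the 2 groups compared that enters the fit of all 21 libraries. Without the mitochondria-rich PO replicate 1 it was 1282, and it was 328 in a fit of only the 6 libraries, which estimates the spread from them alone.

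**Figure D1:**
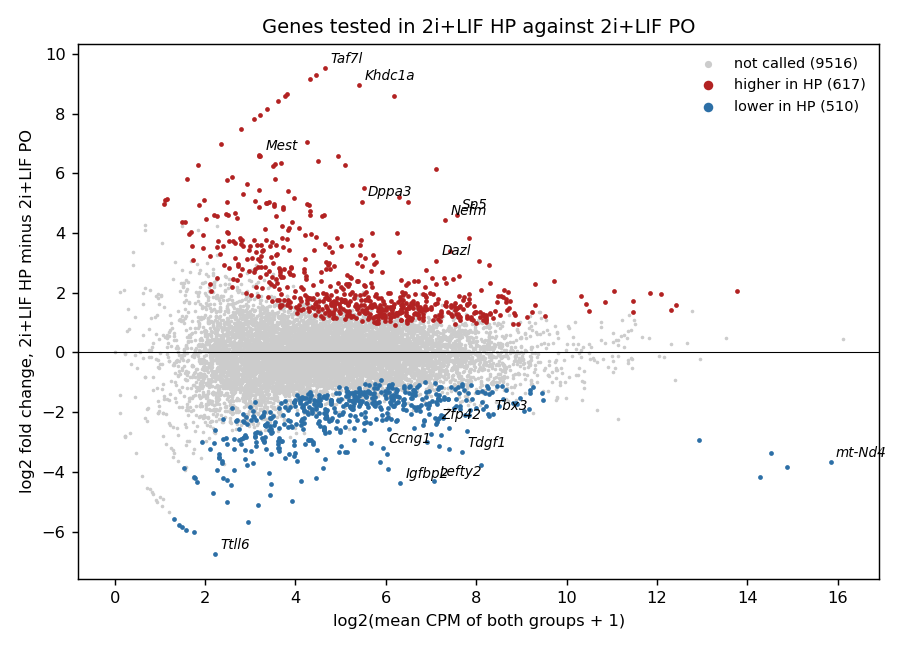
Each point is 1 of the 10643 tested genes, with log2 of the mean CPM of both groups plus 1 on the x axis and the fitted log2 fold change of HP minus PO on the y axis. Red points are the 617 genes higher and blue points the 510 genes lower in HP at an adjusted p under 0.05. The diagonal line of points at the upper left holds genes without counts in PO, whose fitted values are no measured folds.

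Of 22 genes of the naive state, 11 fell, while the core factors Pou5f1 and Sox2 did not pass the test. All 22 were tested and 1 rose (54.5% called, against 10.6% of all genes), and the list's median log2 fold change was -1.36. Their summed level was 3441 to 4780 CPM in HP and 7239.5 to 8206 CPM in PO, so naive genes were expressed in all 6 libraries. In such bulk samples fewer cells expressing a gene and less RNA per cell cannot be told apart. Zfp42 (ENSMUSG00000051176, chromosome 8, 43295063 to 43306980 on build GRCm38, as are all positions here), the Rex1 gene that carries the reporter on 1 allele, had 64.1, 29.4 and 37.4 CPM in HP and 217, 343 and 135 CPM in PO. All HP libraries lay below all PO libraries, with a log2 fold change of -2.40 (SE 0.37, edgeR adjusted p 0.000183). Tbx3 (ENSMUSG00000018604, chromosome 5, 119670669 to 119684724), a naive transcription factor downstream of LIF, fell from 729, 414 and 380.4 CPM to 136, 126 and 88.2 CPM, again without overlap, and had 538, 342 and 443 CPM in LP. Its difference from LP was also past the threshold (log2 fold change -1.91, edgeR adjusted p 0.00215). Esrrb, an orphan nuclear receptor, had 187, 116 and 73.8 CPM in HP, 256, 341 and 381 CPM in PO and 155.7, 180.4 and 132 CPM in LP. Nanog, a homeobox factor of the naive network, had 204, 204 and 99.7 CPM in HP, 308, 579 and 460.2 CPM in PO and 112, 133 and 186 CPM in LP. For both genes the LP libraries lay below PO as HP did, and HP against LP did not pass (edgeR adjusted p 0.698 and 0.801).

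Further falls on the naive list were Fgf4, the ligand that drives ERK signalling in these cells, from 248 ± 28.4 to 57.1 ± 25.3 CPM (SD, n = 3), and the nuclear receptor Nr5a2, from 284 ± 87.1 to 78.2 ± 48.2 CPM. Zfp57, which protects imprints, fell from 122 ± 70.0 to 24.5 ± 16.3 CPM, and Morc1, a repressor of transposons, from 106 ± 17.1 to 34.9 ± 9.63 CPM. Jam2, an adhesion molecule, Dppa5a, an RNA-binding protein of pluripotent cells, and Tfcp2l1 (edgeR adjusted p 0.05, under the threshold before rounding) also fell. On average Jam2 was at 63.4 CPM in HP, 194 CPM in PO and 65.3 CPM in LP, and Dppa5a at 36.3, 509 and 36.4 CPM. For both, LP against PO passed as well (edgeR adjusted p 0.00899 and 0.00933). Dppa3 (ENSMUSG00000046323, chromosome 6, 122626410 to 122630272), also called Stella, which protects the oocyte's genome from changes in methylation, went the other way. It had 36.7, 142.8 and 73.8 CPM in HP, 4.75, 2.88 and 0.499 CPM in PO and 6.31, 0.431 and 0.559 CPM in LP, so that HP stood above both other groups (log2 fold change against PO 5.05, SE 0.90, edgeR adjusted p 0.000947). Klf4 had 376, 171 and 403 CPM in HP and 314, 417 and 314 CPM in PO, groups that overlapped. Prdm14, a repressor of the methylation machinery, had 8.37, 9.81 and 8.63 CPM in HP and 24.8, 23.3 and 24.7 CPM in PO, without overlap, and was not called (edgeR adjusted p 0.114), while DESeq2 called it. Klf5 also lay below PO without overlap and was not called, and Klf2, not called here, passed in the voom fit and in the fit without PO replicate 1. The calls of Zfp42, Tbx3, Fgf4, Zfp57, Morc1, Jam2, Dppa5a and Dppa3 were kept in all 6 fits that left out 1 of the 6 libraries. The number of naive genes that fell was 7 without HP replicate 3 and 5 in the fit of only the 6 libraries, where Morc1 and Jam2 lost their calls.

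Of 10 core pluripotency genes 6 fell and none rose (60% called, against 10.6% of all genes), with a median log2 fold change of -1.38. Tdgf1 (ENSMUSG00000032494, chromosome 9, 110939603 to 110946158), the Nodal co-receptor Cripto, had 65.5, 10.4 and 33.5 CPM in HP, 339.8, 452 and 335 CPM in PO and 431, 343 and 399 CPM in LP. The fall from PO was -3.35 on the log2 scale (SE 0.45, edgeR adjusted p 4.89e-05), and the difference from LP was -3.41 (edgeR adjusted p 8.7e-05). Utf1, a chromatin factor of undifferentiated cells, had 4.65, 0.545 and 3.83 CPM in HP and 6.33, 59.1 and 65.3 CPM in PO. L1td1, an RNA-binding protein derived from a transposon, had 222, 57.8 and 75.7 CPM in HP, 598, 392 and 487 CPM in PO and 728, 725 and 597 CPM in LP. Trim71 and Sall4 fell by smaller amounts (log2 fold changes -1.70 and -1.17), and the call of each was lost in at least 3 of the 6 fits without 1 library. The number that fell was 3 without HP replicate 2, 3 without HP replicate 3 and 2 in the fit of only the 6 libraries, where L1td1 lost its call. Sox2 had 439.7, 401 and 389 CPM in HP and 623, 446 and 427 CPM in PO. Pou5f1, which encodes Oct4 and shares sequence with pseudogenes that could take some of its reads, had 37.2, 27.8 and 56.5 CPM in HP and 30.6, 25.9 and 31.2 CPM in PO. Their log2 fold changes were -0.28 (SE 0.34) and 0.46 (SE 0.40), and a missed threshold does not show equal levels.

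**Figure D2:**
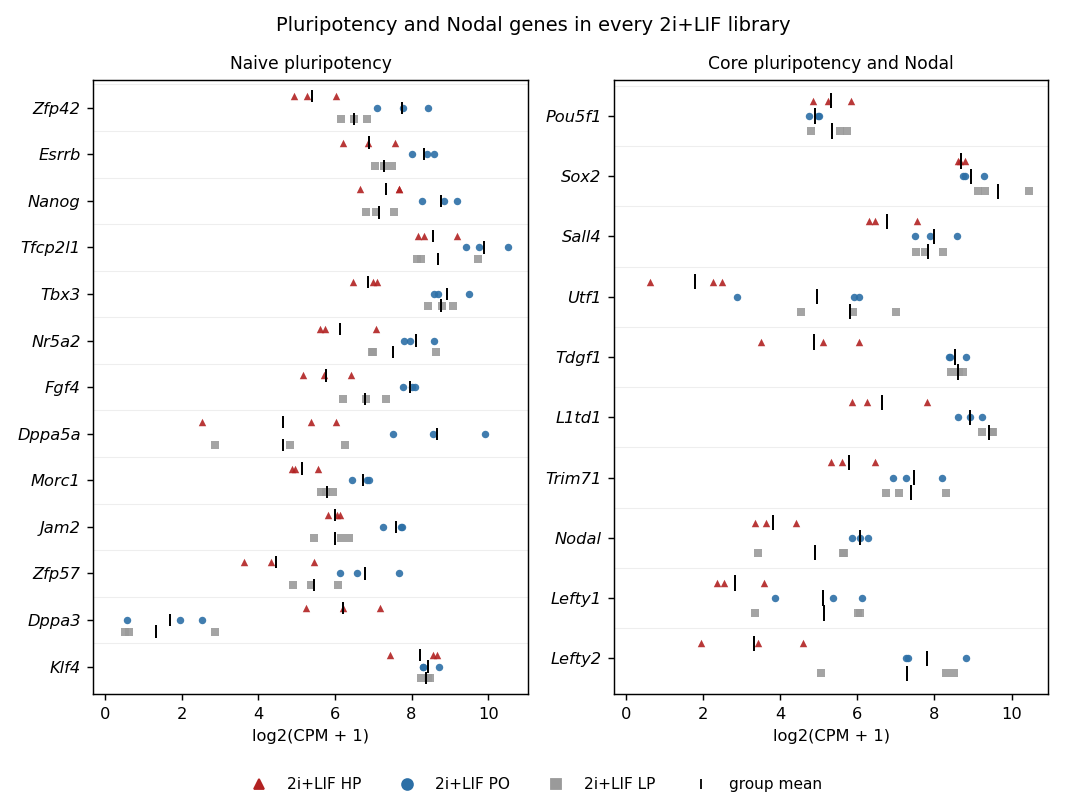
Log2(CPM + 1) of naive pluripotency genes (left) and of core pluripotency and Nodal genes (right), with 1 point per library and 3 libraries per group. Red triangles are HP, blue circles PO, grey squares LP, and black ticks the group means. HP lies below PO without overlap for Zfp42, Tbx3, Tdgf1 and Lefty2, and above it for Dppa3.

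Of 13 tested targets of Wnt/beta-catenin signalling 8 rose and none fell (61.5% called, against 10.6% of all genes). The list held 17 genes, and those that passed the filter on low counts had a median log2 fold change of 2.69. Sp5 (ENSMUSG00000075304, chromosome 2, 70474923 to 70477729), a transcription factor and direct Wnt target, had 135, 494 and 455 CPM in HP, 32.2, 2.35 and 11.5 CPM in PO and 62.4, 18.5 and 8.39 CPM in LP. HP stood above both other groups (log2 fold change against PO 4.62, SE 0.72, edgeR adjusted p 0.000207; against LP 3.62, edgeR adjusted p 0.00261). T (ENSMUSG00000062327, chromosome 17, 8434423 to 8442496), or brachyury, a mesoderm factor, had 13.5, 36.5 and 17.3 CPM in HP and no counts in the 3 PO libraries. It was at least 73.5-fold higher in HP (edgeR adjusted p 0.00083), and LP had 0, 3.01 and 0 CPM. Lef1 (ENSMUSG00000027985, chromosome 3, 131110471 to 131224356, overlapping Gm43352), a DNA-binding partner of beta-catenin, had 25.1, 50.1 and 29.7 CPM in HP, 4.22, 0 and 0 CPM in PO and 2.81, 3.44 and 1.68 CPM in LP. Dkk1 (ENSMUSG00000024868, chromosome 19, 30545863 to 30549665), a secreted inhibitor that Wnt signalling induces, had 6.97, 53.4 and 17.3 CPM in HP and 1.06, 0.261 and 0.499 CPM in PO.

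The other rises on this list were Axin2 and Nkd1, feedback inhibitors inside the cell, and the homeobox factors Cdx1 and Cdx2. Axin2, which overlaps Gm11670, had 48.8, 73.6 and 53.7 CPM in HP, 14.8, 5.23 and 9.47 CPM in PO and 28.8, 14.2 and 1.68 CPM in LP, and Cdx1 had 32.5, 70.3 and 15.3 CPM in HP and 6.86, 0.784 and 10.7 CPM in PO. The calls of Sp5, T, Lef1 and Dkk1 were kept in every fit without 1 of the 6 libraries, while those of Axin2, Nkd1, Cdx1 and Cdx2 were not. The count of Wnt targets that rose was 4 without PO replicate 2, 4 without HP replicate 2 and 5 without HP replicate 3. Among those not called, Ccnd1 had 266, 219 and 169 CPM in HP and 221, 87.3 and 110.4 CPM in PO, Tcf7 13.8 ± 2.34 and 7.89 ± 1.38 CPM (SD, n = 3). Notum, an enzyme that inactivates Wnt ligands, had 5.58, 3.27 and 0 CPM in HP and 24.3, 16.5 and 9.22 CPM in PO, with HP below PO in all libraries (edgeR adjusted p 0.0829). DESeq2 and the fit without the filter on low counts called Notum lower. Of 18 tested components of the pathway 3 rose and 1 fell (22.2% called, against 10.6% of all genes). Porcn, the enzyme that acylates Wnt ligands, rose from 1.06, 0 and 0.997 to 32.1, 13.1 and 16.3 CPM, and LP had 1.40, 10.8 and 10.6 CPM. The ligands Wnt5b and Wnt6 rose with calls that single libraries decided, the count being 1 without HP replicate 2, without HP replicate 3 and in the fit of only the 6 libraries. The receptor Fzd5, not called in that fit, fell from 31.1, 68.8 and 77.3 to 20.4, 17.4 and 8.63 CPM, and was at 94.0, 63.7 and 71.0 CPM in LP. Beta-catenin itself, Ctnnb1, had 394, 944 and 354 CPM in HP and 299.7, 749.6 and 779 CPM in PO.

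Because T, Dkk1 and Lef1 had the largest fitted rises on this list, the bases just upstream of their starts are shown (RefSeq, GRCm38.p6, for Lef1 the first of 4 listed promoters). T lies at chr17:8434173-8434422 and Lef1 at chr3:131110047-131110296 on the plus strand, and Dkk1, shortened to the 81 bases upstream of the GENCODE start as well, at chr19:30549666-30549746 on the minus strand.
T: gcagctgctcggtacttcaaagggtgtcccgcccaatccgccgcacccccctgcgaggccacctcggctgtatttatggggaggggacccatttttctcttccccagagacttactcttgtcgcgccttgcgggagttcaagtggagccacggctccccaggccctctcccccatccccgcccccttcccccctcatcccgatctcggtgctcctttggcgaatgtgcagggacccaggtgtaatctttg
Dkk1: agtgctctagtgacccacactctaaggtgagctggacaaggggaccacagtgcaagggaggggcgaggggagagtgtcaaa
Lef1: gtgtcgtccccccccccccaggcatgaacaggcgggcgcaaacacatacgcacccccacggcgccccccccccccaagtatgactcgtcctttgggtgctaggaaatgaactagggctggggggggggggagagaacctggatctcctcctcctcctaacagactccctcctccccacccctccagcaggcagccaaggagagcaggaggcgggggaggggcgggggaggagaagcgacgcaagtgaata
None of these stretches holds CTTTGAT or CTTTGTT, the TCF/LEF-type motifs searched on both strands, hence the absence of capitals. In the 250 bases before the start, CTTTGAT was found in 3.23% and CTTTGTT in 4.99% of 27025 promoters, and in 1 and 2 of 11 Wnt targets with a promoter listed (Sp5 has both, Dkk1 the second, 98 bases upstream of the RefSeq start). The window is short, and a missing match says nothing about the factor.

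Among targets of the MEK-ERK pathway 3 rose, while Dusp6, Spry4, Egr1 and Fos were low in both HP and PO. Dusp6, the ERK phosphatase induced by ERK, had 2.32, 4.91 and 2.88 CPM in HP and 3.69, 2.61 and 2.24 CPM in PO, whereas LP had 0.701, 34.4 and 26.3 CPM. Spry4, another feedback inhibitor, had 2 counts in the 3 HP libraries together and 1 in PO, and the early response genes Egr1 and Fos were at or under 3 CPM in all 6 libraries. Of 14 tested targets 3 rose and none fell (21.4% called, against 10.6% of all genes). Etv4 (ENSMUSG00000017724, chromosome 11, 101769742 to 101785371), an ETS factor, had 68.8, 21.8 and 40.3 CPM in HP, 4.75, 6.54 and 4.49 CPM in PO and 135, 169 and 161 CPM in LP. It was thus above PO (log2 fold change 3.03, SE 0.40, edgeR adjusted p 4.22e-05), yet below LP (-1.82, edgeR adjusted p 0.004). Phlda1, which overlaps Gm28592, rose from 5.80, 3.40 and 8.23 to 24.2, 183 and 77.6 CPM. The third, Etv1 (1.49, edgeR adjusted p 0.042), lost its call in each fit without 1 of the 6 libraries. Spry2, another feedback inhibitor, had 166, 222 and 83.4 CPM in HP and 157.2, 176 and 126 CPM in PO, groups that overlapped.

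**Figure D3:**
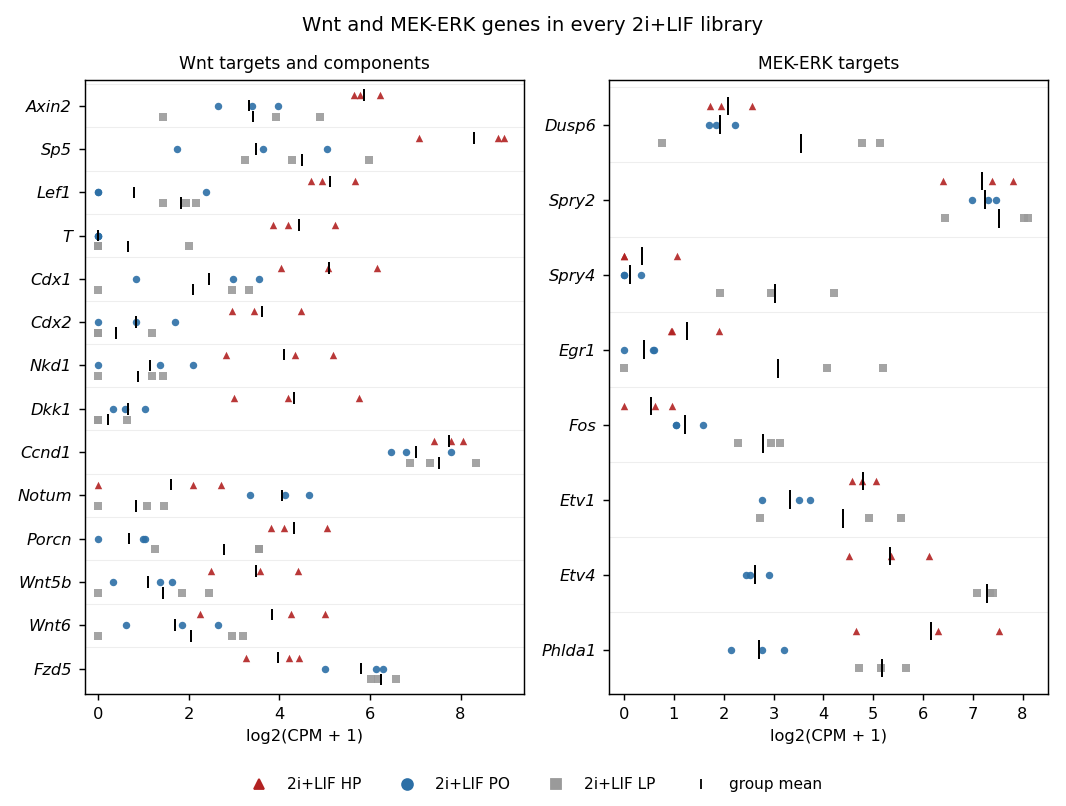
Log2(CPM + 1) of Wnt targets and components (left) and MEK-ERK targets (right), with 1 point per library and 3 libraries per group. Red triangles are HP, blue circles PO, grey squares LP, and black ticks the group means. Sp5, Dkk1 and T are above both other groups in HP, while Dusp6 and Egr1 are low in HP and PO and high in 2 of the 3 LP libraries.

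Genes of the LIF-STAT3 pathway fell in 4 of 14 cases and rose in 1 (35.7% called, against 10.6% of all genes). Socs3, the feedback inhibitor that STAT3 induces, had 14.9, 9.27 and 0.958 CPM in HP, 32.2, 69.8 and 104 CPM in PO and 5.61, 34.9 and 49.2 CPM in LP (log2 fold change against PO -2.93, SE 0.61, edgeR adjusted p 0.00309). Stat3 itself had 113, 69.8 and 10.5 CPM in HP and 159.9, 240.3 and 228 CPM in PO, and the LIF receptor gene Lifr had 49.3, 19.6 and 25.9 and 236, 29.3 and 51.9 CPM. With Tfcp2l1, these were the calls that single libraries decided: the number that fell was 1 without HP replicate 2 or 3 and in the fit of only the 6 libraries, and 2 without PO replicate 1 or 3. Gbx2, a homeobox gene downstream of STAT3, rose from 2.11, 0.784 and 2.99 to 13.0, 31.6 and 9.58 CPM. The other 9 tested genes, Klf4 among them, were not called.

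Nodal, its co-receptor and its antagonists fell. Of 13 tested genes 4 fell, Tdgf1 among them, and none rose (30.8% called, against 10.6% of all genes). Lefty2 (ENSMUSG00000066652, chromosome 1, 180893108 to 180899103), a secreted inhibitor induced by Nodal, had 23.2, 9.81 and 2.88 CPM in HP, 154.1, 449 and 158.8 CPM in PO and 32.3, 364 and 316 CPM in LP. All 3 libraries lay below PO (log2 fold change -4.32, SE 0.68, edgeR adjusted p 0.000207). LP was higher than HP as well. Lefty1, its close relative, had 4.18, 10.9 and 4.79 CPM in HP and 13.7, 68.2 and 40.4 CPM in PO, and lost its call without HP replicate 3. The ligand Nodal had 20.4, 9.27 and 11.5 CPM in HP, 66.5, 57.5 and 76.5 CPM in PO and 9.82, 48.2 and 49.2 CPM in LP. The receptor and Smad genes tested were not called. On the list of BMP genes Msx1, a homeobox target, rose to 5.11, 19.6 and 23.0 CPM from 0, 0.523 and 0.249 CPM and had no counts in LP. The other 9 tested genes were not called, a share of 10% that is near the 10.6% of all genes. That share varied with the fit: 3 of 10 rose with DESeq2 and with voom, 5 of 10 without LP replicate 1, and 0 of 9 after thinning to equal counts. The ligand Bmp4 had 41.8, 70.3 and 132 CPM in HP, 157.2, 47.1 and 44.1 CPM in PO and 21.7, 849 and 699 CPM in LP.

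Of 16 tested genes of the p53 pathway 9 fell and none rose (56.3% called, against 10.6% of all genes), with a median log2 fold change of -1.47. Ccng1 (ENSMUSG00000020326, chromosome 11, 40748552 to 40755311), a cyclin G induced by p53, had 8.37, 14.2 and 13.4 CPM in HP, 72.8, 121 and 134 CPM in PO and 79.9, 64.6 and 106 CPM in LP. HP lay below both other groups (log2 fold change against PO -3.20, SE 0.41, edgeR adjusted p 2.94e-05; against LP -2.81, edgeR adjusted p 0.000212). Eda2r (ENSMUSG00000034457, chromosome X, 97333840 to 97377216), a receptor of the tumour necrosis factor family, had 0.465, 0.545 and 1.92 CPM in HP, 17.4, 21.2 and 18.2 CPM in PO and 15.4, 15.1 and 20.7 CPM in LP, 4 counts against 187 in PO. Zmat3, an RNA-binding target, had 12.5, 14.2 and 9.58 CPM in HP, 54.3, 45.5 and 53.6 CPM in PO and 68.7, 53.4 and 85.0 CPM in LP. Trp53inp1 and Perp fell in the same way, from 98.1, 76.9 and 105 to 20.0, 44.7 and 31.6 CPM and from 16.9, 13.6 and 15.7 to 0.930, 3.82 and 4.79 CPM. These 5 genes were lower than in LP as well, with edgeR adjusted p up to 0.0168, and kept their call against PO in all 6 fits without 1 library.

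Trp53, the gene of p53 itself, had 40.4, 12.5 and 30.7 CPM in HP and 178, 84.7 and 45.9 CPM in PO, and Mdm2, which marks p53 for degradation, had 49.3, 70.9 and 36.4 and 89.2, 186 and 139.8 CPM. The death genes Bbc3 (Puma) and Tnfrsf10b also fell. The calls of these 4 genes depended on single libraries, and the number of p53 genes that fell was 5 without HP replicate 3. It was 3 in the fit of only the 6 libraries, where Trp53inp1 and Perp also lost their calls. Cdkn1a, which encodes p21, had 277, 268 and 259 CPM in HP and 224, 401 and 530.2 CPM in PO and was not called (log2 fold change -0.52, SE 0.35). Bax was not called either (log2 fold change 0.99, SE 0.58).

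Of 26 tested germline genes 10 rose and none fell (38.5% called, against 10.6% of all genes). The list held 32 genes, and the median log2 fold change of those tested was 1.80. Without the filter on low counts 12 of all 32 rose, none fell, and the median was 1.29. Taf7l (ENSMUSG00000009596, chromosome X, 134460118 to 134476490), a germ-cell form of a TFIID subunit, had 19.5, 36.5 and 90.1 CPM in HP and no counts in the PO libraries. It was at least 131-fold higher in HP (edgeR adjusted p 4.04e-06). LP had 21.7, 12.5 and 24.0 CPM, which overlapped HP, and HP against LP did not pass (edgeR adjusted p 0.203). Tex19.2 had 40.9, 72.0 and 123 CPM in HP, 3.69, 6.54 and 8.23 CPM in PO and 22.4, 12.5 and 14.0 CPM in LP, so that HP exceeded both (log2 fold change against LP 2.27, edgeR adjusted p 0.00577). Dazl (ENSMUSG00000010592, chromosome 17, 50279395 to 50293636), an RNA-binding protein of germ cells, had 140.4, 413 and 182 CPM in HP, 15.3, 48.9 and 21.9 CPM in PO and 55.4, 55.1 and 127 CPM in LP. Tuba3b, a testis tubulin, had 20.9, 18.5 and 17.3 CPM in HP, 1.06, 1.57 and 1.50 CPM in PO and 21.7, 16.8 and 16.8 CPM in LP, so HP and LP overlapped and both lay above PO. It is nearly identical to other tubulin genes, and its counts are uncertain to that extent. Slc25a31, a germ-cell ADP/ATP carrier, rose from 0, 1.05 and 0.748 to 10.2, 12.0 and 6.71 CPM. Fkbp6 and Xlr3a also kept their calls whichever of the 6 libraries was left out, while Sycp3, Stra8 and Tex101 did not. Fkbp6 had 176, 242 and 77.6 CPM in HP, 3.69, 53.3 and 36.4 CPM in PO and 70.1, 174 and 198 CPM in LP. It lost its call in the fit of only the 6 libraries. The remaining 16 tested genes were not called, among them Tex19.1 with 242, 327 and 134 CPM in HP and 76.0, 361 and 272 CPM in PO, which overlapped.

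The upstream bases of Taf7l and Slc25a31 are shown because they had the largest fitted rises on this list, with capitals for the E-box CACGTG (RefSeq, GRCm38.p6). Taf7l lies at chrX:134476491-134476740 on the minus strand and Slc25a31 at chr3:40708621-40708854 on the plus strand, the latter shortened to the 234 bases upstream of the GENCODE start as well. Tuba3b, the next by fold, is not shown because 206 of its 250 bases lie past the GENCODE start.
Taf7l: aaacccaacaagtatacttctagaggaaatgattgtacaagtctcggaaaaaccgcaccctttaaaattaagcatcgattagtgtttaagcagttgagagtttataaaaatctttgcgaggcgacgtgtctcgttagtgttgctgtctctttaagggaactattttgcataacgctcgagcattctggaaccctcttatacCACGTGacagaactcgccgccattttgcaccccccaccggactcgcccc
Slc25a31: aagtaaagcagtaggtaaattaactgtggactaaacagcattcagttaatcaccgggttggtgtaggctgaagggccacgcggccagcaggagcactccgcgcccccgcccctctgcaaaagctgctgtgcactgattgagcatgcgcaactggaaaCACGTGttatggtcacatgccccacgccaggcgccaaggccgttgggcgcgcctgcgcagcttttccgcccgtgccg
The motif lies 49 bases before the RefSeq start in Taf7l and 93 in Slc25a31. CACGTG occurred in 6.05% of the 27025 promoters and in 13 of 31 germline genes with a promoter listed (41.9%). GCGGGAA, the E2F-type motif, occurred in 3.84% of all promoters and in 8 of the 31 (25.8%). Germline promoters held a median of 14 CG dinucleotides in 250 bases, against 6 in all promoters. These are features of the list as chosen, and their part in the rise was not tested.

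Among 20 tested imprinted genes 3 rose and none fell (15% called, against 10.6% of all genes), with a median log2 fold change of 0.07. Peg3 (ENSMUSG00000002265, chromosome 7, 6703892 to 6730431), a paternally expressed zinc finger gene, had 55.8, 184 and 181 CPM in HP, 7.39, 16.5 and 16.0 CPM in PO and 44.9, 43.1 and 50.9 CPM in LP (log2 fold change against PO 3.36, SE 0.45, edgeR adjusted p 4.22e-05). Mest, also paternally expressed, had 14.4, 25.1 and 9.58 CPM in HP, 2.81, 16.4 and 17.3 CPM in LP and 1 count in the 3 PO libraries together. Its ratio of pooled counts per scaled library size was 168 (95% counting interval 29.4 to 6724), and it overlaps Copg2. Plagl1, a zinc finger factor, rose from 3.69, 5.75 and 4.99 to 89.7, 52.3 and 31.6 CPM and was at 68.0, 36.2 and 8.95 CPM in LP. Each of the 3 calls was kept without any 1 of the 6 libraries. Falls appeared in some fits, 2 of 21 genes without HP replicate 1 and 1 without LP replicate 1 and with voom. Voom gave 6 rises. The H19 RNA had 12 counts in HP and 0 in PO, too few for the test.

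**Figure D4:**
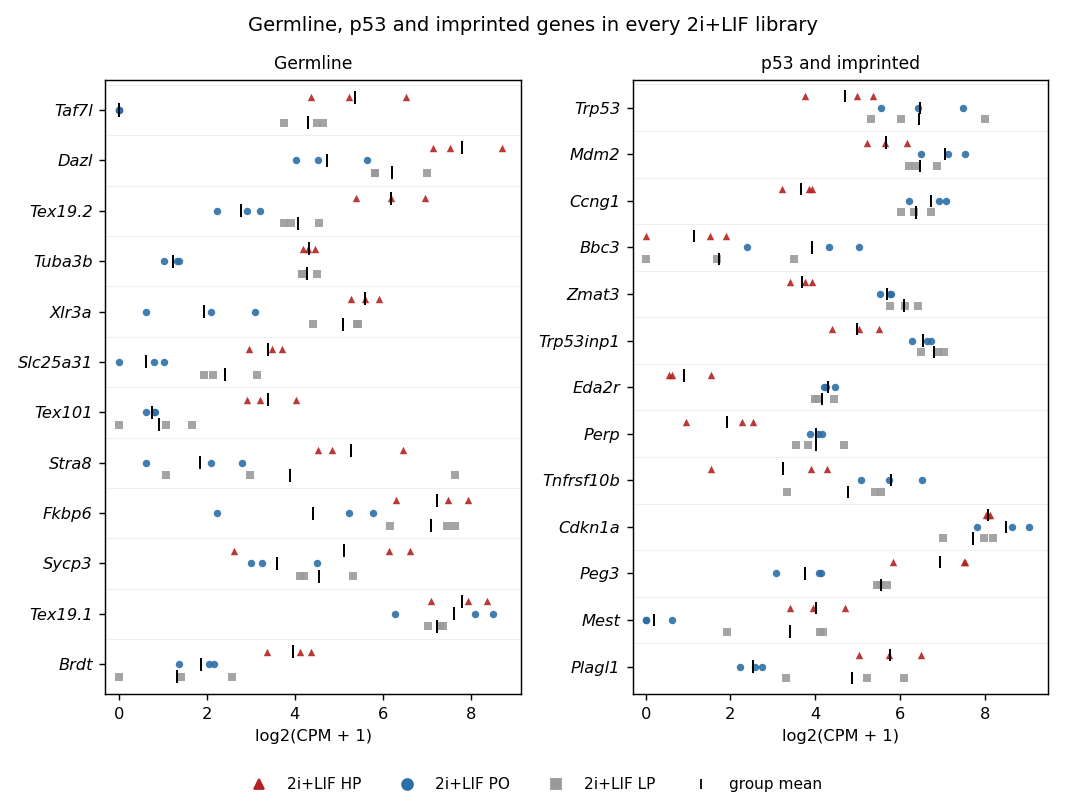
Log2(CPM + 1) of germline genes (left) and of p53 and imprinted genes (right), with 1 point per library and 3 libraries per group. Red triangles are HP, blue circles PO, grey squares LP, and black ticks the group means. Taf7l and Tuba3b are high in HP and LP and near 0 in PO, and Ccng1, Zmat3 and Eda2r are lower in HP than in both other groups.

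Enzymes of DNA methylation changed in both directions. Dnmt3a, a de novo methyltransferase, rose from 26.4, 10.7 and 14.0 to 73.9, 41.4 and 49.8 CPM (edgeR adjusted p 0.0104), and Dnmt3l, its catalytically inactive partner, fell from 15.3, 43.1 and 76.3 to 10.2, 4.91 and 5.75 CPM and was at 16.8, 139.9 and 142.6 CPM in LP. Tet2, which oxidises methylcytosine, fell from 220.0, 111 and 144.6 to 74.4, 18.0 and 32.6 CPM. Uhrf2, a reader of modified cytosine, rose from 38.0, 20.9 and 17.7 to 69.7, 93.8 and 62.3 CPM and was at 5.61, 6.89 and 11.2 CPM in LP. With Zfp57, these made 2 rises and 3 falls among 16 genes (31.3% called, against 10.6% of all genes), and the call of Zfp57 alone was kept in all 6 fits without 1 library. The fit of only the 6 libraries gave no rise and 2 falls. Suz12 rose and Eed fell among 11 genes of the Polycomb complex PRC2, 18.2% called against 10.6% of all genes. Single libraries decided both calls, and neither was made in the fit of only the 6 libraries.

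X-linked genes rose more often than they fell. Of 368 tested X-linked genes 49 rose and 8 fell (15.5% called, against 10.6% of all genes, of which 5.8% rose and 4.79% fell). Their median log2 fold change was 0.23, while the medians of the 19 autosomes lay between -0.20 and 0.03. Medians of the gene-centred log2 CPM of X-linked genes were 0.05, 0.28 and 0.20 in HP and -0.26, -0.22 and -0.12 in PO, without overlap. Without HP replicate 3 the X-linked counts were 28 rises and 3 falls, with a median of 0.22, and in the fit of only the 6 libraries 25 and 2 of 328, with a median of 0.24. Germ-cell gene clusters accounted for 10 of the rises, a grouping made after the values were seen. Among them 5 of 6 tested Rhox homeobox genes and all 5 tested Xlr genes rose (83.3% and 100% called, against 10.6% of all genes). Without both families the median of the remaining 357 genes was 0.18, with 39 rises and 8 falls. Rhox6 had 47.4, 74.7 and 84.3 CPM in HP, 3.69, 6.28 and 6.23 CPM in PO and 16.8, 22.0 and 16.2 CPM in LP. Rhox5, the sixth, was high in both groups with 535, 494 and 453 CPM in HP and 72.3, 409 and 315 CPM in PO. Xlr3c had 31.6, 63.8 and 38.3 CPM in HP, 0, 2.09 and 2.74 CPM in PO and 27.3, 29.7 and 40.3 CPM in LP. Members of both families resemble one another closely, so single members' counts are uncertain. On the Y chromosome Ddx3y and Zfy1 rose and Eif2s3y fell among 5 tested genes (60% called, against 10.6% of all genes). Ddx3y had 40.4, 120 and 92.0 CPM in HP, 20.0, 24.6 and 22.7 CPM in PO and 170, 144.7 and 300 CPM in LP.

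The 12 largest fitted rises, in genes of at least 5 CPM in 1 group and without overlap, were mostly genes without counts in PO. After Taf7l came Dnase2b, a DNase of the lens and other tissues that overlaps Uox, with 7.44, 40.9 and 76.7 CPM in HP and at least a 110.3-fold rise. Cyp2c70, a liver cytochrome P450, had 10.2, 46.9 and 56.5 CPM and was at least 108-fold higher. Neither had a count in LP. Khdc1a, a gene of the oocyte and early embryo with close relatives, had 6.04, 145.5 and 95.8 CPM in HP, 380 counts against 1 in PO and none in LP. St8sia2, which makes polysialic acid, had 18.1, 24.0 and 36.4 CPM in HP and no counts in PO or LP. The X-linked genes 1700013H16Rik, Nxf2, 4930502E18Rik and Rhox2a, with T, the channel subunit gene Kcnmb2 and the inflammasome gene Naip1, completed the 12. DESeq2 did not call Dnase2b, Rhox2a or Naip1, with adjusted p of 0.247, 0.0643 and 0.371. Naip1 also lost its call without HP replicate 3. 1700013H16Rik had 49.7, 194 and 185 CPM in HP, 0, 0.261 and 0.499 CPM in PO and 4.21, 14.6 and 36.9 CPM in LP.

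The 12 largest fitted falls by the same rule included Lefty2 and Igfbp2 (ENSMUSG00000039323, chromosome 1, 72824503 to 72852474), which binds insulin-like growth factors. Igfbp2 had 9.30, 8.18 and 2.88 CPM in HP, 24.8, 303 and 123 CPM in PO and 47.7, 37.0 and 35.2 CPM in LP (log2 fold change against PO -4.39, SE 0.60, edgeR adjusted p 5.69e-05). Snx20, a sorting nexin, had 0.465, 1.09 and 0.958 CPM in HP, 34.3, 18.0 and 29.7 CPM in PO and 42.1, 28.8 and 32.4 CPM in LP. Dapk1, a kinase linked to cell death, had 0.465, 0 and 1.92 CPM in HP and 19.0, 16.2 and 21.7 CPM in PO. Wdr35, a part of the transport machinery of cilia, had 2.79, 1.09 and 0 CPM in HP and 30.1, 27.7 and 36.9 CPM in PO. Ttll6, an enzyme that modifies tubulin, had no counts in HP and 14.8, 3.92 and 3.24 CPM in PO. Gas6, Cpt1c, Ly6g6e, Fgf10 and Tagln3, each with 1 or 2 counts in the 3 HP libraries together, and Eda2r completed the 12. The calls of Ttll6, Gas6, Ly6g6e and Tagln3 were each lost without at least 1 of the 6 libraries.

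Stress and metabolic genes moved in smaller groups. Of 18 tested genes of the ATF4 response, which cells use under amino acid or protein folding stress, 6 rose and none fell (33.3% called, against 10.6% of all genes). Ddit3 (CHOP) had 45.1, 56.7 and 129 CPM in HP and 14.2, 7.06 and 9.72 CPM in PO (log2 fold change 2.90, SE 0.47, edgeR adjusted p 0.000242). It overlaps Mars. Mthfd2, a mitochondrial folate enzyme, rose from 26.9, 77.1 and 45.4 to 218, 147.2 and 235 CPM, with 369, 361 and 331 CPM in LP. Atf4, Atf3, Nupr1 and Trib3 were the other rises, and without HP replicate 3 the count was 3. Nupr1 had 79.5, 40.3 and 55.6 CPM in HP, 5.28, 21.4 and 8.23 CPM in PO and 30.2, 59.8 and 83.9 CPM in LP. Of 22 glycolytic genes 6 fell and none rose (27.3% called). Slc16a3, a lactate exporter, fell from 13.2, 22.7 and 33.4 to 2.32, 1.64 and 1.92 CPM and was at 54.0, 24.5 and 27.4 CPM in LP, and Tpi1 fell from 60.1, 136 and 132 to 28.3, 38.7 and 26.8 CPM. The falls of Slc2a3, Hk2, Pfkl and Gapdh depended on single libraries, and the count was 2 without PO replicate 3, without HP replicate 3 and in the fit of only the 6 libraries. Gapdh has many pseudogenes, and its counts are uncertain. Of 26 genes of cholesterol and fatty acid synthesis Mvd, Fdps, Ebp and Dhcr7 rose, 15.4% called against 10.6% of all genes. Mvd had 216, 147.7 and 263 CPM in HP, 60.1, 58.6 and 42.9 CPM in PO and 353, 144.2 and 168 CPM in LP. The count of rises was 2 without PO replicate 2 or HP replicate 3 and 1 in the fit of only the 6 libraries.

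Genes of other cell types were looked for in both groups. Few of them reached the test, 4 of 13 for primitive endoderm (none called), 2 of 12 for mesendoderm (T alone called) and 3 of 12 for fibroblasts (none called). DESeq2 called 2 of the 4 primitive endoderm genes lower, and the fit of 5 libraries without PO replicate 1 called 1 of 2 fibroblast genes lower. The primitive endoderm factor Sox7 and the fibroblast genes Postn and Acta2 had no counts in any of the 6 libraries, and Gata4 had 0 counts in HP and 17 in PO. The summed primitive endoderm list was at 39.0 to 72.0 CPM in HP and 49.1 to 100.2 CPM in PO. Of 7 tested trophectoderm genes Cdx2 and Krt7 rose (28.6% called, against 10.6% of all genes), but Cdx2 lost its call in 5 of the 6 fits without 1 library, and neither passed the filter after thinning to equal counts. Elf5 had no counts and Gata3 had 6 counts in HP and 38 in PO. Of 6 tested neural genes Nefm, Nefl and Pax6 rose (50% called), and 1 of 4 in the fit of only the 6 libraries. The neurofilament gene Nefm (ENSMUSG00000022054, chromosome 14, 68082590 to 68124846) had 351, 195 and 355 CPM in HP, 23.2, 5.23 and 14.2 CPM in PO and 189, 222 and 144.3 CPM in LP, and Nefl, which overlaps it, 658, 505 and 852, 303, 52.8 and 143.3 and 1028, 825 and 711 CPM. Without a stated strand setting their reads cannot be told apart. Pax6 had 0.465, 2.73 and 3.83 CPM in HP, no counts in PO and 9.82, 1.29 and 0.559 CPM in LP, and its call was lost in 5 of the 6 fits without 1 library, while the neural progenitor gene Hes5 had no counts. Of the 2-cell-like genes Khdc1a alone was tested, and Zscan4c had 13 counts in HP and 0 in PO. Of 6 tested genes of the formative and primed list 2 fell (33.3% called, against 10.6% of all genes), and 4 had positive fold changes that did not pass. The median log2 fold change was 0.40. It was -0.11 without HP replicate 2, 0.000607 without HP replicate 3 and -1.04 in the fit of 5 libraries without PO replicate 1. Foxd3 and Otx2 were the falls (from 25.9, 39.0 and 36.1 to 8.83, 2.73 and 0 CPM and from 5.28, 24.8 and 9.22 to 0.930, 3.27 and 1.92 CPM), and Otx2 lost its call without PO replicate 2, HP replicate 1 or HP replicate 3. Fgf5 had 3 counts in each group.

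**Figure D5:**
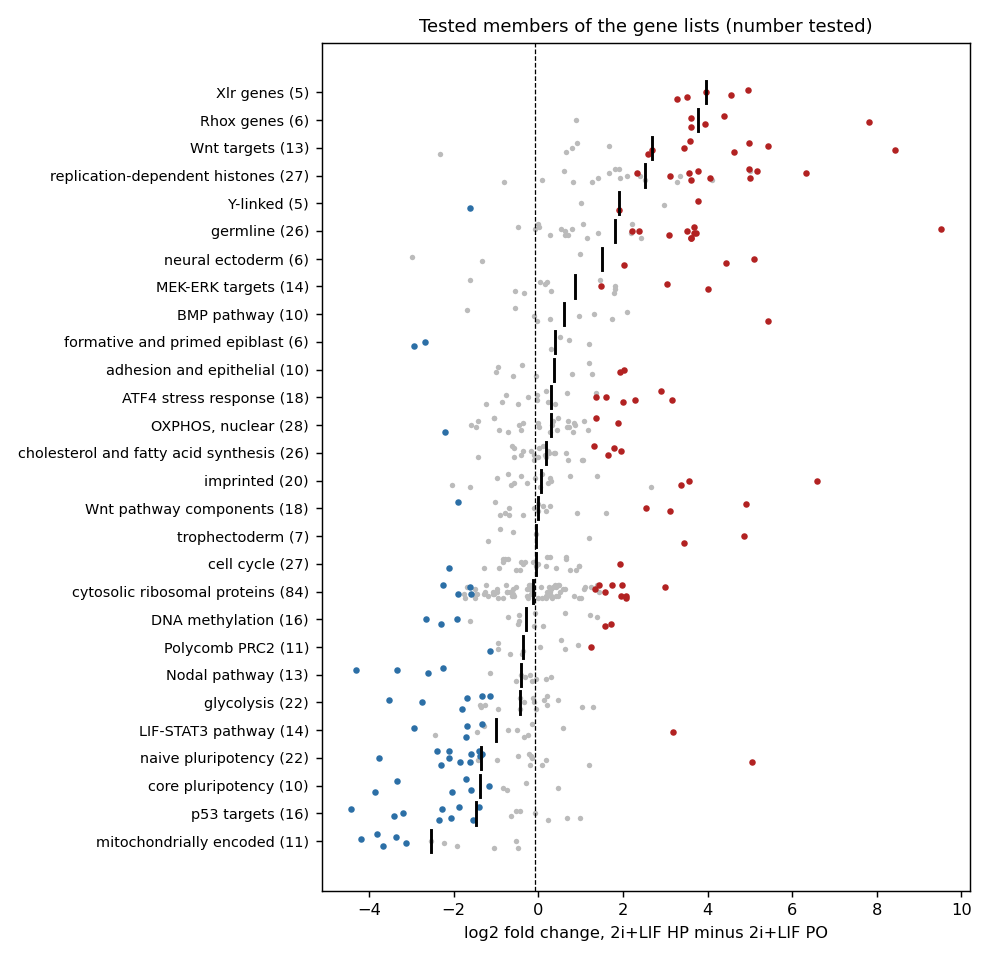
Fitted log2 fold change of HP minus PO for each tested member of the lists with at least 5 tested genes, whose number stands in brackets. Red and blue points passed an adjusted p of 0.05, grey points did not, black bars are list medians, and the dashed line is the median of all genes at -0.09. Wnt targets, germline genes and histones lie to the right, and p53 and naive genes to the left.

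The make-up of the libraries moved with the groups. All 11 tested mitochondrially encoded genes had lower fitted levels in HP, and 5 fell (45.5% called, against 10.6% of all genes). Their summed level was 25677, 21552 and 13559 CPM in HP, 618495, 74668 and 65114 CPM in PO and 2595, 24448 and 41470 CPM in LP. LP thus lay below PO as well. The 5 falls were 2 without PO replicate 1 and 1 in the fit of only the 6 libraries. Replication-dependent histone genes, whose mRNAs lack a poly(A) tail, rose in 10 of 27 cases (37% called, against 10.6% of all genes) with a median log2 fold change of 2.51 (2.41 with genes at 0 set to their bound) and fell in none. Without the filter on low counts 20 of 63 rose, none fell, and the median was 1.94. Hist1h4i had 20.9, 35.4 and 29.7 CPM in HP and 1.06, 0.784 and 0.499 CPM in PO. Their summed level was 225, 356 and 728 CPM in HP, 209, 51.0 and 32.7 CPM in PO and 339, 515 and 386 CPM in LP, so LP was above PO as well. The histone share of counts was highest in HP replicate 3, the shallowest library, at 0.0671%, and 0.00393 to 0.0132% in PO, and the count of rises was 4 without HP replicate 3 and 6 without PO replicate 2 or PO replicate 3, and 4 of 12 in the fit of only the 6 libraries. Of 84 ribosomal protein genes 9 rose and 4 fell, 15.5% called against 10.6% of all genes. Those counts were 8 and 13 without PO replicate 1, 0 and 1 without HP replicate 3 and 1 and 1 in the fit of only the 6 libraries, and the genes have many near-identical copies. The part of library make-up in the other differences was not tested.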

How the data were processed

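The authors deposited 1 table per library of whole-number counts per Ensembl gene ID (31053 IDs, not normalized, with 5 closing entries of the form htseq-count writes, which were left out). The submitters' processing notes name bcl2fastq, STAR 2.6.0a, HTSeq and mm10, and the strand setting is not given in the sources used here. Reads without a unique position were not among the gene counts (22.5 to 30.4% of all entries in the 6 libraries), which lowers genes with near-identical copies, and genes overlapping another gene (404 of those called) may share reads. GENCODE M21 gave symbols and positions for 31011 IDs. Total gene counts were 1132126 to 3783043 per library, and intervals and floors cover counting error only, since no molecular identifiers were used.

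All 21 libraries entered 1 fit in edgeR 4.0.16 (R 4.3.3): TMM scaling, filterByExpr, a coefficient per group, 14 residual degrees of freedom, two-sided quasi-likelihood tests and Benjamini-Hochberg adjustment over 10643 genes at 0.05. SE is the absolute log2 fold change over the square root of F. Folds against a group at 0 were computed against 3 counts over the group, and ratios against 1 to 3 counts carry a 95% counting interval, both from pooled counts over pooled TMM-scaled library sizes. The steps were tested on simulated data. Named genes came from 30 lists (617 genes, 3 more without a matching symbol), 2 families added after the values were seen, and the 12 largest rises and falls with at least 5 CPM in 1 group and no overlap. Single values of some list members are not reported here. The members and lists were chosen with earlier results of these data known. Alternatives were DESeq2 1.42.0, its size factors, no filter, thinning to 1132126 counts, the 6 libraries alone without and with a replicate block, removal of mitochondrial genes and Gm42418, limma 3.58.1 voom weights, and leaving out libraries. The fit of 5 libraries without PO replicate 1 was chosen after seeing the data. No pair of libraries agreed within sampling noise (lowest chi-square per degree of freedom 16.1).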

Additional observations from a re-analysis of the deposited data

How the results depend on the processing

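Of the 117 called genes the text names, none changed direction under any alternative that tested it, whereas many calls depended on which libraries were fitted. Fitting only the 6 libraries called 328 genes, 203 higher and 1.26% of those tested lower, of which 310 were among the 1127, and 40 of 108 named genes tested there lost their call. Adding the replicate block to that fit gave 441 (260 higher, 1.83% lower). Whether equal replicate numbers pair the libraries was not settled by their correlations. Deviations of same-numbered libraries correlated at 0.113, 0.247 and -0.11. HP replicates 1 and 2 correlated best with their own number, and HP replicate 3 did not. Voom with sample weights gave 1818 genes (1027 higher, 7.43% lower), and the fit without LP replicate 1 gave 1715 (966 and 749). Over the fits without 1 of the 6 libraries the total ranged from 364 to 1378, the rises from 215 to 762 and the falls from 1.35% to 5.6% of genes tested (4.79% with all). All were lowest without HP replicate 3, where 40 named genes lost their call, and without HP replicate 2 the falls were 2.83%. Without PO replicate 1, 829 of the 1127 genes were called, among 1282. DESeq2 called 1563 genes, 1120 of them shared. The cause of these changes was not tested. Among uncalled list genes 126 of 346 changed sign in at least 1 alternative, 7 of them named, against 0 of 130 called list genes. The called genes were picked in these same data, with absolute log2 fold changes of at least 0.92. Their sign could hardly change, so the comparison is not an even one. Without 1 library the log2 fold change ranged from -0.35 to 0.16 for Klf4, -0.70 to 0.13 for Ctnnb1, -0.11 to 0.54 for Dusp6, -1.35 to 2.75 for Spry4, -0.28 to 0.34 for Spry2, -0.55 to 0.82 for Bmp4 and -0.44 to 0.41 for Tex19.1. With the replicate block Spry2 was at -0.0478, Bmp4 at 0.14 and Tex19.1 at 0.15. Bmp4 and Tex19.1 were at 0.0699 and 0.0325 after thinning and at 0.0118 and 0.00889 without LP replicate 1. Bmp4 was at 0.00581 without mitochondrial genes and Gm42418, 0.53 with voom and 0.83 in the 5 libraries. Depth limits genes of a few CPM most: 6563 genes with counts were not tested. Run and group cannot be told apart by any alternative.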
